A study of Mus musculus with 10 samples.

Results

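The macrophage-associated genes Clec4n, Msr1, Mpeg1, Ctss, Ccl6 and Cd163, were followed in cochlear RNA from mice fed germanium dioxide (GeO2) and from mice on normal chow. They were taken by symbol from the authors' deposited table of genes that differ between these groups, so the difference between the groups chose them and is given below as a description, without a test. The 6 genes have 8 probe sets, of 7806 probe sets in that table and 5478 genes it names; Clec4n and Ccl6 have 2 probe sets each. The GeO2 group held 5 samples of cochlea from male CBA mice, 6 months old, that had 0.15% GeO2 in the diet for 4 months. The control group held 5 samples of cochlea from male CBA mice of the same age on normal chow. CBA mice are an inbred strain often chosen for studies of the ear, and chronic intake of GeO2 is known to damage the kidney and muscle. Each sample had 1 Affymetrix array, and signals are linear intensities as deposited, in arbitrary units. Whether a sample came from 1 animal or from several pooled is not given in the labels, and the design notes report no replicates although each group has 5 samples. The p-values therefore describe the spread among the 5 arrays of each group, part of which may be technical.

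Macrophages are phagocytes that live in most tissues, are renewed in part from blood monocytes, and clear dead cells, microbes and debris. In the cochlea they are known from the spiral ligament, the stria vascularis, the spiral ganglion and the marrow of the surrounding bone, and their number is known to increase after many kinds of cochlear injury. Their receptors recognise sugars, modified lipoproteins and haemoglobin complexes, their lysosomes degrade what is taken up, and their chemokines attract further leukocytes.

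Arrays differed little in overall level, with medians of 447 to 484 units in GeO2 and 448 to 508 units in control. The trimmed mean was 1495.6 to 1496.5 units over the 10 arrays. The number of arrays limits the precision. Of 20 genes that mark the cochlea, 5 had a named and tested probe set, of which 1 rose, 3 fell and 1 did not pass in limma. The potassium channel genes Kcne1 and Kcnq1 changed by −2.96 (SE 0.46, adjusted p = 0.00218) and −1.24 (SE 0.28, adjusted p = 0.0106) on the log2 scale, and Otor by −0.64 (SE 0.15, adjusted p = 0.0136). Otog, a protein of the acellular membranes, rose by 0.73 (SE 0.23, adjusted p = 0.0438) and did not pass in 7 of the 10 fits that dropped 1 array (adjusted p up to 0.101), with quantile normalization, with no filter or with the replicate block. Gjb6, a connexin of supporting cells and fibrocytes, averaged 41547 ± 3813 units in GeO2 and 36225 ± 2518 units in control (SD, n = 5). In whole-tissue RNA, a change in the number of cells of a type and a change in RNA per cell cannot be told apart. Of 30 general macrophage markers, 3 have a named probe set, because names come only from the authors' deposited table of genes that differ. Most genes by which macrophages are usually recognised are not in that table. The authors thus did not list them, under these symbols, among the genes that differ. Any probe sets that these markers have on the array stayed without a name and were not analysed here. GeO2 replicates 4 and 5 and control replicate 3 were often the highest or lowest arrays of their groups for these genes. GeO2 replicate 5 had the highest signal of its group in 5 of the 6 genes. GeO2 replicate 4 had the lowest signal of its group in 4 of the 6 genes and control replicate 3 the highest in 4 of the 6, each gene read at its brighter probe set.

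Every one of the 8 probe sets had a higher mean in GeO2, with fold differences between 2.04 and 4.36, taken as powers of 2 of the difference of mean log2(signal + 16). Of the 8 probe sets, 2 had all GeO2 arrays above all control arrays. Over the 45037 probe sets of the array, 4.25% were separated in that direction, and 6.55% of the 27022 kept after a filter on dim probe sets, and because the members come from a table selected on this contrast nothing is read from the count. The authors' deposited table lists p-values between 0.0086 for Cd163 and 0.04783 for one Clec4n probe set.

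The receptors come first. Clec4n encodes dectin-2, a C-type lectin of macrophages, monocytes and dendritic cells that binds mannose-rich sugars of fungi and signals through the Fc receptor gamma chain. Its brighter probe set had 876, 717, 1935, 367 and 2922 units in GeO2 replicates 1 to 5, against 248, 331, 322, 169.8 and 257 units in control replicates 1 to 5. All GeO2 arrays lay above the highest control, by a narrow margin for GeO2 replicate 4 and by a wide one for replicates 3 and 5. The means were 1363 ± 1049 units in GeO2 and 265.5 ± 65.2 units in control (SD, n = 5), and the log2 difference was 1.97 (SE 0.55), a 3.91-fold difference. The spread within the GeO2 group was an SD of 1.17 on the log2 scale, against 0.36 in control.

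The second Clec4n probe set is dim, at the 15.02 percentile of mean log2 signal over the array, and was therefore outside the fit across probe sets, which left out the lowest 40%. It had 188, 155, 429.9, 4.9 and 477 units in GeO2 against 38.4, 18.4, 28, 9.8 and 31.7 units in control. Here the groups overlapped, because GeO2 replicate 4 was lower than every control while the other 4 GeO2 arrays were above all of them. The log2 difference of 2.13 (SE 0.84) became 2.89 without GeO2 replicate 4 and 1.51 with an offset of 64 in place of 16. Across the 10 arrays, both Clec4n probe sets, each with its group means removed, had a Pearson r of 0.88 (exact permutation p = 0.00542) and a Spearman rho of 0.73 (exact permutation p = 0.0428), and r was 0.72 without the 2 farthest arrays.

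Msr1 encodes class A scavenger receptor, which takes up modified lipoproteins and bacterial surface molecules. Its signals were 1647, 666, 1918, 789 and 3444 units in GeO2 against 363, 433, 545, 593 and 554 units in control. The groups did not overlap, although GeO2 replicate 2 stood just above the highest control. Mean signal was 1693 ± 1117 units in GeO2 and 498 ± 95.7 units in control (SD, n = 5), with a log2 difference of 1.51 (SE 0.45), or 2.84-fold.

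Cd163 encodes the receptor by which macrophages take up complexes of haemoglobin and haptoglobin. Signals of 306, 403, 488, 536 and 358 units in GeO2 stood against 162, 86.4, 346.5, 232 and 226 units in control. Only control replicate 3 reached into the GeO2 range, and GeO2 replicate 4, the lowest GeO2 array for most of the other genes, was the highest array for Cd163. The means were 418 ± 93.8 units in GeO2 and 211 ± 96.1 units in control (SD, n = 5), and the log2 difference was 1.03 (SE 0.34), or 2.04-fold. At the 39.93 percentile, this probe set lay just under the limit of the fit.

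Mpeg1 and Ctss act inside the phagocyte. Mpeg1 encodes perforin-2, a pore-forming protein directed at engulfed bacteria. It had 7056, 4781, 6742, 2484 and 10912 units in GeO2 against 2359, 2613, 3615, 1559 and 1231 units in control. GeO2 replicate 4 fell within the control range, and the other 4 GeO2 arrays were above it. The means were 6395 ± 3117 units in GeO2 and 2275 ± 938 units in control (SD, n = 5), a log2 difference of 1.43 (SE 0.45), or 2.69-fold.

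Ctss encodes cathepsin S, a lysosomal cysteine protease that trims the invariant chain before antigen is loaded onto MHC class II. Signals were 24314, 13801, 19265, 8022.5 and 25820.5 units in GeO2 against 6838, 7309, 11396, 6131 and 5467 units in control. As for Mpeg1, GeO2 replicate 4 lay among the controls, and control replicate 3 was the highest of its group. The means were 18244 ± 7408 units in GeO2 and 7428 ± 2326 units in control (SD, n = 5), with a log2 difference of 1.22 (SE 0.36), or 2.34-fold.

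Ccl6 encodes a secreted CC chemokine of mouse myeloid cells that attracts further leukocytes. Its brighter probe set had 1515, 1457, 2739.6, 557 and 3221 units in GeO2 against 537, 525, 1098.5, 549 and 282 units in control. GeO2 replicate 4 fell below control replicate 3, and the other 4 GeO2 arrays were above all controls. The means were 1898 ± 1072 units in GeO2 and 598 ± 301 units in control (SD, n = 5), a log2 difference of 1.54 (SE 0.53), or 2.90-fold. The second Ccl6 probe set, at the 38.61 percentile and so outside the fit, had 448, 295, 514, 241 and 565 units in GeO2 against 150.3, 221, 261, 139.6 and 139.9 units in control, a log2 difference of 1.09 (SE 0.29). The suffix of this probe set marks probes that can match transcripts of related sequence, as for the brighter Clec4n probe set. Both Ccl6 probe sets, treated in the same way, had a Pearson r of 0.86 (exact permutation p = 0.00139) and a rho of 0.81 (exact permutation p = 0.0178). Dropping the 2 farthest arrays gave r of 0.74.

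**Figure D1:**
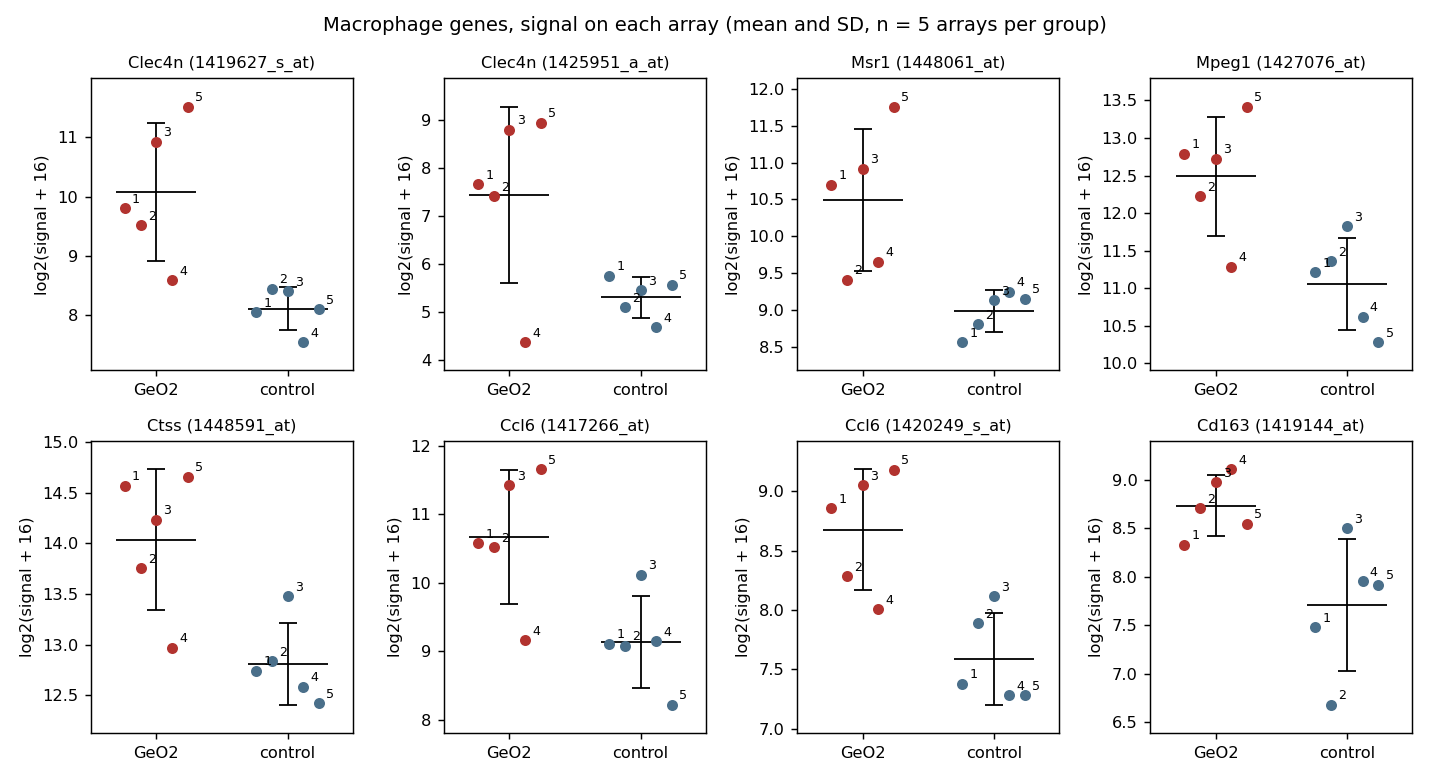
Signal of each array as log2(signal + 16) for the 8 probe sets, with GeO2 on the left and control on the right of each panel. Points are arrays numbered by replicate, and bars give the mean and SD (n = 5). GeO2 replicate 4 is the lowest GeO2 array for Clec4n, Mpeg1, Ctss and Ccl6 and the highest for Cd163.

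Whether the genes vary together was asked after removing each group's mean, which takes out the difference of means. The selection is not wholly removed by this, because spread within groups can also enter the authors' p-values. Differences among GeO2 arrays in the size of the rise also stay in the deviations. Deviations from the group mean were correlated over the 10 arrays for all 15 pairs of the 6 genes, with an exact two-sided permutation of arrays within groups and Benjamini-Hochberg adjustment over the 15 pairs. Clec4n, Msr1, Mpeg1, Ctss and Ccl6 gave positive correlations in all 10 of their pairs, with r between 0.59 and 0.95 (median 0.80) and rho between 0.45 and 0.96. Of these 10 pairs, 5 passed. The share that passes among pairs of other genes is not given here, so the count is not read as particular to these genes. Mpeg1 and Ctss were closest, with r of 0.95 (exact permutation p = 7e-05, the smallest that these permutations can give, adjusted p = 0.00104), and rho of 0.96 (exact permutation, adjusted p = 0.00104), and with the 2 farthest arrays dropped r was 0.90. This pair passed in each of the 10 fits that dropped 1 array.

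The chemokine gene went with them. Ccl6 gave r of 0.91 with Mpeg1 (exact permutation p = 0.00139, adjusted p = 0.0104) and 0.88 with Ctss (exact permutation p = 0.00396, adjusted p = 0.0198), with rho of 0.75 and 0.82. The lectin gene Clec4n gave r of 0.81 with Mpeg1 (exact permutation p = 0.00764, adjusted p = 0.0286, rho 0.71) and 0.81 with Ccl6 (exact permutation p = 0.0146, adjusted p = 0.044, rho 0.66). Without the 2 farthest arrays these 4 correlations were 0.75, 0.71, 0.50 and 0.52. By Spearman's rho, only the Mpeg1 and Ctss pair of the 15 passed the adjustment. The 4 pairs of Msr1 with these genes had r between 0.59 and 0.79 and did not pass (adjusted p between 0.146 and 0.191, exact permutation). The number of pairs that passed fell to 1 without GeO2 replicate 4, GeO2 replicate 5 or control replicate 3, to 2 without GeO2 replicate 2 and to 3 without GeO2 replicate 3. Over the 10 pairs, the median r was 0.65 without GeO2 replicate 4 and 0.72 without GeO2 replicate 5.

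No pair with Cd163 passed. Its 5 pairs had r between −0.23 with Mpeg1 and 0.04 with Ccl6, rho between −0.33 and 0.08, and adjusted p between 0.591 and 0.986 (exact permutation). Without control replicate 3, the array with the highest control signal of Cd163, r was −0.66 with Mpeg1 (exact permutation, adjusted p = 0.0655) and −0.56 with Ctss (exact permutation, adjusted p = 0.0616), and r with Ccl6 was 0.34 without GeO2 replicate 4. The difference between the correlations of Cd163 and those of the other genes was not tested. Deviations of both groups were pooled without scaling. Cd163 had a log2 SD of 0.31 in GeO2 and 0.68 in control. Clec4n had 1.17 and 0.36, and Msr1 had 0.96 and 0.28. Such unequal spread limits how high r can be for Cd163 with these genes. An r over both groups also does not show whether the relation is alike in each.

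**Figure D2:**
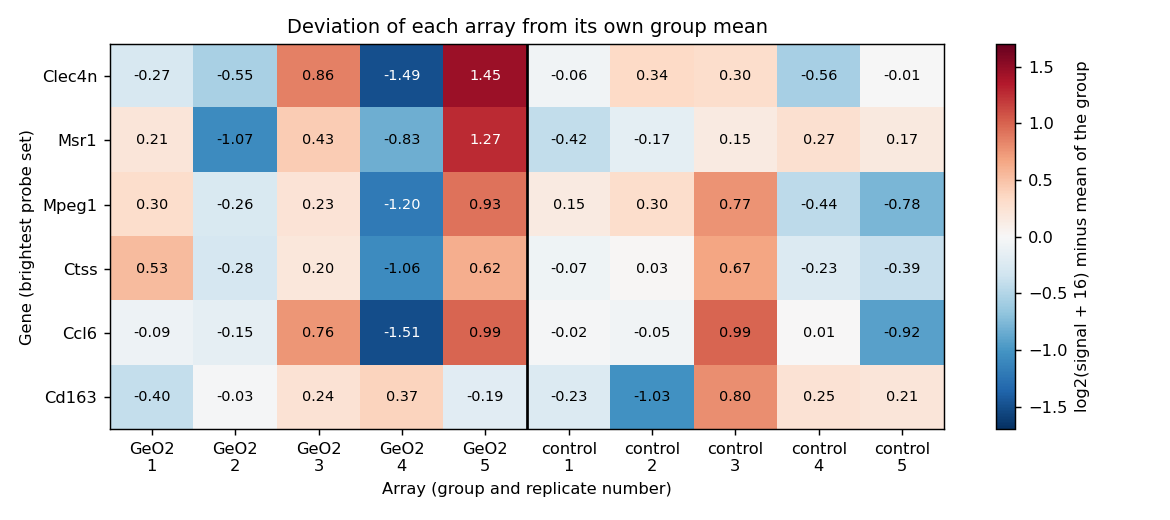
Deviation of each array from the mean of its own group, in log2(signal + 16), for the 6 genes at their brighter probe set. Columns are arrays, GeO2 left of the line and control right of it, and rows are genes. In GeO2 replicate 4, Clec4n, Mpeg1, Ctss and Ccl6 lie between −1.51 and −1.06 and Cd163 at 0.37.

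**Figure D3:**
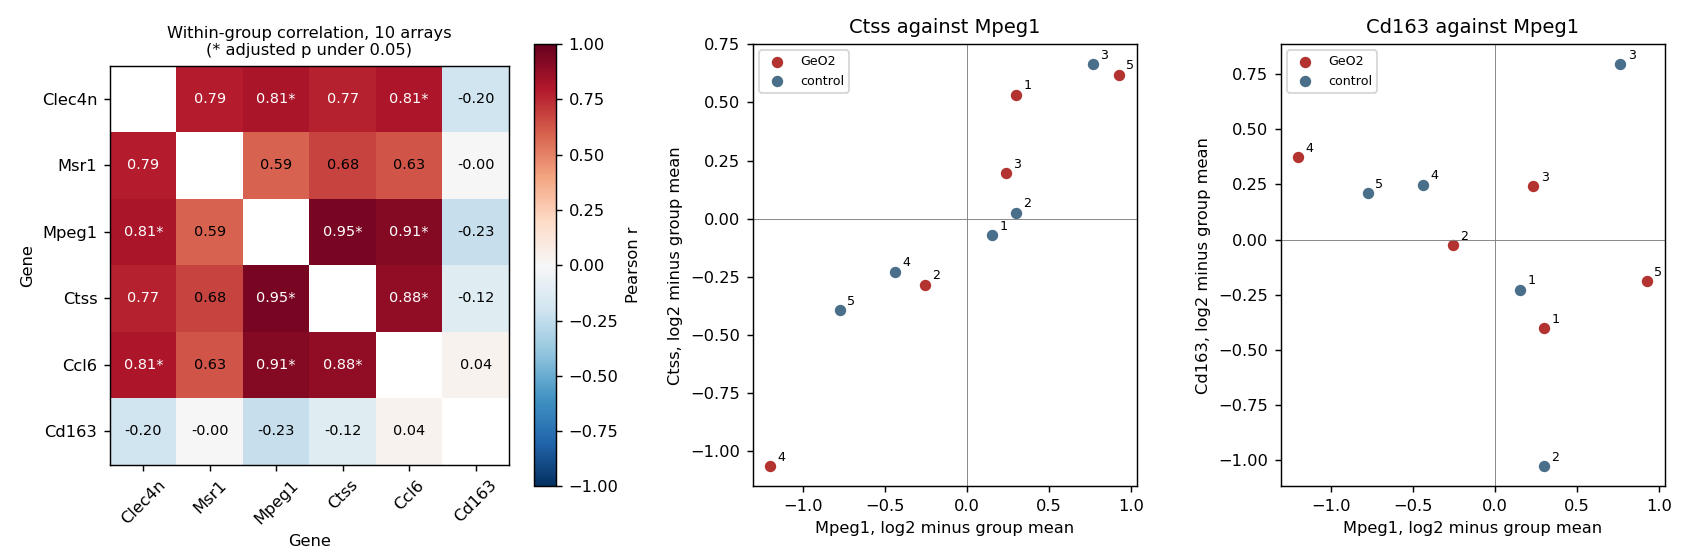
Left, Pearson r between genes over the deviations of 10 arrays from their group means, with a star where the adjusted p was under 0.05. Middle and right, the deviations of Ctss and of Cd163 against those of Mpeg1, in log2 units, with arrays numbered by replicate. Mpeg1 has r of 0.95 with Ctss and of −0.23 with Cd163.

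Promoter windows for 4 of the 6 genes were matched by symbol in RefSeq (GRCm38.p6): Mpeg1, Ctss and Ccl6, whose pairs passed, and Cd163, whose pairs did not. They are shown as a description, and a link between these sequences and the correlations was not tested. Clec4n, which also had pairs that passed, had no window. Each runs from 250 bases before the start of transcription to 50 after it, 5′ to 3′ on the gene's strand. Capitals mark AGGAAG and its reverse complement CTTCCT, a form of the site that ETS factors such as PU.1, a main factor of myeloid cells, are known to bind. Shorter and other forms of the site were not searched and are not marked.
Mpeg1, chr19:12460520-12460819, plus strand: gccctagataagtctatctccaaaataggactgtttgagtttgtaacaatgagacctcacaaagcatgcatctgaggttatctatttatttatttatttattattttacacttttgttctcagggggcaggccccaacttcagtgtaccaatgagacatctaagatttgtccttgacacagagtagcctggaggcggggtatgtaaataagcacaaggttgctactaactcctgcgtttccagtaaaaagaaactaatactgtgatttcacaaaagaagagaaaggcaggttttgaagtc
Ctss, chr3:95526536-95526835, plus strand: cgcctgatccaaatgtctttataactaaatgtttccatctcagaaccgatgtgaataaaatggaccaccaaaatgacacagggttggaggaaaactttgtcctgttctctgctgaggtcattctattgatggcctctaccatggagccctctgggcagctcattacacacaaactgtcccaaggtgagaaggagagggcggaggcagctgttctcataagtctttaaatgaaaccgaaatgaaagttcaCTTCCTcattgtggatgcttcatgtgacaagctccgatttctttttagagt
Ccl6, chr11:83593038-83593337, minus strand: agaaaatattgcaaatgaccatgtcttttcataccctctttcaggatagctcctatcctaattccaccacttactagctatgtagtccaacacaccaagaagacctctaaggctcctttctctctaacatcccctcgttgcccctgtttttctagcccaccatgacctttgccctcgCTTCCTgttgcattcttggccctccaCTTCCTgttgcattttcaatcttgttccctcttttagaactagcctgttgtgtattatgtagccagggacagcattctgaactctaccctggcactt
Cd163, chr6:124304401-124304700, plus strand: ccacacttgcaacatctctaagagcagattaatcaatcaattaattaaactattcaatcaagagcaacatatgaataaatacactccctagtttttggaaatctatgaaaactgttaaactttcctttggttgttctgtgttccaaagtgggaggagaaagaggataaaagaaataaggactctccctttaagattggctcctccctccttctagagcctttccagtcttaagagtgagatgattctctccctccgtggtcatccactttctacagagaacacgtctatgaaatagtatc
The Ctss window held 1 match, across the start of transcription, and the Ccl6 window held 2, which begin at positions −73 and −47 from the start, all as CTTCCT on the gene's strand. The Mpeg1 and Cd163 windows held no match to this form, which does not show that they lack an ETS site. Of 32851 windows of this length in the table, 35.4% held at least 1 match, so its presence is common and is given as a description.

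Among 5111 other named genes tested, those whose deviations were most like the mean of the 6 genes over the 10 arrays were ranked by r. Ets2, an ETS transcription factor, had the highest r, 0.96, followed by AI451458 with 0.93, Fosl2, a member of the AP-1 family, with 0.92 and Slc39a4, a zinc importer, with 0.91. Socs3, a feedback inhibitor of cytokine signalling, had 0.90, Nfkbiz, a regulator of NF-kappaB target genes, 0.89, the chemokine receptor gene Ccr1 0.88 and Il13ra1, a receptor subunit for IL-4 and IL-13, 0.88. Ets2 had 5614, 4742, 6243, 4486 and 6759 units in GeO2 against 3388, 3292.5, 3783, 3529 and 3099.9 units in control, so the groups did not overlap. The order of its GeO2 arrays, with replicates 5 and 3 highest and replicate 4 lowest, is that of Clec4n and Ccl6 at these positions. With GeO2 against control tested in limma, Ets2 (log2 difference 0.69, SE 0.13, adjusted p = 0.00422), Fosl2 (0.89, SE 0.24, adjusted p = 0.0241), Nfkbiz (1.46, SE 0.24, adjusted p = 0.00239), Il13ra1 (1.06, SE 0.21, adjusted p = 0.00539) and Socs3 (1.01, SE 0.32, adjusted p = 0.048) rose. The call of Socs3 was absent in 7 of the 10 fits that dropped 1 array (adjusted p up to 0.118) and with no filter. Slc39a4 differed by 1.68 (SE 0.60, adjusted p = 0.0736), Ccr1 by 0.87 (SE 0.29, adjusted p = 0.0567) and AI451458 by −0.30 (SE 0.14, adjusted p = 0.179) in the same limma fit, without passing. The correlations rank genes and carry no test, and names come only from the authors' deposited table.

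Other genes of macrophage function were taken from 11 fixed lists and tested in the fit across 27022 probe sets, 1 probe set per gene. Of 229 listed genes, 39 were named in the authors' deposited table and tested, and only such genes are called measured below. The others may have probe sets on the array without a name or below the filter. Absence from a count therefore does not mean that a gene has no signal. Of these 39, 18 rose (46.2%) and 4 fell (10.3%) at an adjusted p under 0.05 in limma, with a median log2 difference of 0.40. Over all probe sets tested, 8.5% rose and 7.81% fell. A closer background is the 5116 tested genes that the authors' deposited table names, of which 59.3% passed, 29.6% higher and 29.7% lower in GeO2, with a median of −0.23. All list genes come from that table, which was selected on these arrays, so the counts are not independent evidence of a direction. The count that rose was 9 without GeO2 replicate 5, 11 without control replicate 5 and 12 without control replicate 2. Of the 18 rises 7 passed in each of the 10 fits that dropped 1 array, as did 3 of the 4 falls. These 7 rises were Ctsl, Lamp1, Npc1, Npc2, Il13ra1, Stat3 and Maf. The rises of Cybb, Clec7a, C3ar1 and Csf2rb each lost their call in at least 1 of those fits.

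General macrophage markers had 3 of 30 genes measured. Cybb, the catalytic subunit of the phagocyte NADPH oxidase, rose by 1.11 (SE 0.31, adjusted p = 0.0294 in limma), and did not pass in 5 of the 10 fits that dropped 1 array (adjusted p up to 0.0748). It had 3397, 2826.5, 1903, 1258 and 3193 units in GeO2 against 1291, 1645, 1509, 714 and 652 units in control, and GeO2 replicate 4 again lay among the controls. The Fc receptor genes Fcgr3 and Fcgr2b differed by 0.84 (SE 0.27, adjusted p = 0.0523) and 0.60 (SE 0.21, adjusted p = 0.0725) in limma and did not pass. The summed signal of these 3 markers ran from 3038 to 7112 units in GeO2 and from 2125 to 3557 units in control. These genes are also known in neutrophils or B cells.

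Dectin-2 is not the only lectin of its pathway in the table. Clec7a, which encodes dectin-1, the receptor for fungal beta-glucan, rose by 0.85 (SE 0.22, adjusted p = 0.0203 in limma), and did not pass without GeO2 replicate 5 (adjusted p = 0.0538). Its signals were 3102, 1694.5, 1847, 1273 and 2943 units in GeO2 against 1086, 1224.5, 1240.4, 1171 and 949.8 units in control, with no overlap. Mgl2, a galactose-type lectin, was the other of 22 C-type lectin genes measured, and differed by −0.55 (SE 0.21, adjusted p = 0.0962). Of 11 genes of the signalling route below these lectins, 2 were measured and both rose. Malt1 and Bcl10, which join Card9 in the complex that activates NF-kappaB, rose by 0.75 (SE 0.20, adjusted p = 0.0216 in limma) and 0.39 (SE 0.11, adjusted p = 0.0247 in limma). Malt1 lost its call without control replicate 2 or 5 (adjusted p up to 0.0521), and Bcl10 without GeO2 replicate 5 or control replicate 2 or 3 (adjusted p up to 0.0674).

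Scavenger receptors had 3 of 20 other genes measured. Colec12, which like Msr1 joins a collagen-like stem to a binding head, rose by 0.64 (SE 0.17, adjusted p = 0.0239 in limma), and did not pass in 4 of the 10 fits that dropped 1 array (adjusted p up to 0.0573). Axl, a receptor for dying cells, differed by 0.39 (SE 0.14, adjusted p = 0.0796) and Scarb1, the HDL receptor, by −0.35 (SE 0.14, adjusted p = 0.0983) in limma. Neither passed.

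Lysosomal genes, the group to which Ctss belongs, had 11 of 26 other genes measured, of which 6 rose, 1 fell and 4 did not pass. Gusb, a lysosomal glycosidase, rose by 0.74 (SE 0.20, adjusted p = 0.023 in limma), and did not pass without control replicate 2 (adjusted p = 0.0525). The cholesterol exporters Npc2 and Npc1 rose by 0.58 (SE 0.11) and 0.56 (SE 0.14), and cathepsin L, Ctsl, by 0.43 (SE 0.08), with adjusted p between 0.00345 and 0.0144 in limma. The membrane proteins Lamp2 and Lamp1 rose by 0.40 (SE 0.13) and 0.31 (SE 0.08). Lamp2 did not pass in 8 of the 10 fits that dropped 1 array (adjusted p up to 0.106), with arrays shifted to 1 median, and with no filter, and Lamp1 lost its call with no filter. The 1 fall was Ctse, an aspartic protease also found in red cells, at −2.40 (SE 0.39, adjusted p = 0.00242 in limma). Most of these genes are known to be expressed in nearly all cells.

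Haemoglobin and haem handling, the setting of Cd163, had 4 of 17 genes tested, of which 1 rose, 2 fell and 1 did not pass. Blvrb, biliverdin reductase B, changed by −2.48 (SE 0.30, adjusted p = 0.000608 in limma) and Slc48a1, a haem transporter of lysosomes, by −1.001 (SE 0.18, adjusted p = 0.00374 in limma). Nfe2l2, which encodes NRF2, rose by 0.36 (SE 0.10, adjusted p = 0.0327 in limma), and did not pass in 5 of the 10 fits that dropped 1 array (adjusted p up to 0.0881), with arrays shifted to 1 median, and with no filter. Bach1, a haem-sensitive repressor, differed by 0.40 (SE 0.13, adjusted p = 0.0521 in limma). Hmox1, haem oxygenase 1, which degrades the haem that Cd163 brings in, was below the limit of the fit. It had 186.5, 259, 300.3, 242 and 387 units in GeO2 against 146.7, 19.5, 166.7, 24.8 and 120.3 units in control, so the groups did not overlap. In the fit without the filter its log2 difference was 1.66 (SE 0.47, adjusted p = 0.0485 in limma). Control replicates 2 and 4 had signals close to the offset of 16, so the size of this difference depends on the offset. Red cell genes fell as Blvrb, Slc48a1 and Ctse did. Of 20 erythroid markers 17 were measured, 16 fell and 1 did not pass. Among them Trim10 changed by −3.14 (SE 0.52), the membrane protein gene Epb42 by −3.10 (SE 0.56), the Rhesus antigen gene Rhd by −3.09 (SE 0.44) and Klf1, a main transcription factor of red cell precursors, by −3.01 (SE 0.37), with adjusted p between 0.000707 and 0.00352 in limma. They averaged 10.50 ± 0.88 on the log2 scale in GeO2 and 12.69 ± 0.52 in control (SD, n = 5), and their summed signal ran from 67194 to 122250 units in GeO2 and from 133920 to 226680 units in control. Their part in the changes of Blvrb, Slc48a1 and Ctse was not tested.

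Colony-stimulating factor receptors and the factors that set macrophage identity had 7 of 25 genes measured, of which 5 rose and 2 did not pass. Csf2rb, the shared beta chain of the GM-CSF and IL-3 receptors, rose by 1.15 (SE 0.33, adjusted p = 0.0304 in limma), and did not pass in 6 of the 10 fits that dropped 1 array (adjusted p up to 0.0716) and with no filter. Il13ra1 and Stat3 rose by 1.06 (SE 0.21, adjusted p = 0.00539) and 0.74 (SE 0.17, adjusted p = 0.0117) in limma, and dropping any 1 array left both past the threshold. Maf, a transcription factor of macrophages and other cells, rose by 0.39 (SE 0.10, adjusted p = 0.0157 in limma), and Socs3, with the values given among the most like genes, was the fifth to rise. Il34, a ligand of the CSF1 receptor, differed by −0.38 (SE 0.17, adjusted p = 0.144 in limma).

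The remaining lists had few named genes. C3ar1, the receptor for complement fragment C3a, rose by 0.91 (SE 0.24, adjusted p = 0.023 in limma), and did not pass in 3 of the 10 fits that dropped 1 array (adjusted p up to 0.0549). Of 38 other chemokine and chemokine receptor genes 2 were measured and neither passed, Ccr1 and Ccl28 (0.55, SE 0.22, adjusted p = 0.106 in limma). Antigen presentation had 1 of 13 genes measured, the co-stimulatory molecule gene Cd80 (0.78, SE 0.27, adjusted p = 0.0623 in limma). Among 24 genes of macrophage activation, 2 were measured. The cytokine gene Il18 fell by 0.45 (SE 0.12, adjusted p = 0.0269 in limma), and did not pass in 6 of the 10 fits that dropped 1 array (adjusted p up to 0.0644) and with arrays shifted to 1 median, and Ly96, a partner of Tlr4, differed by −0.36 (SE 0.17, adjusted p = 0.171).

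**Figure D4:**
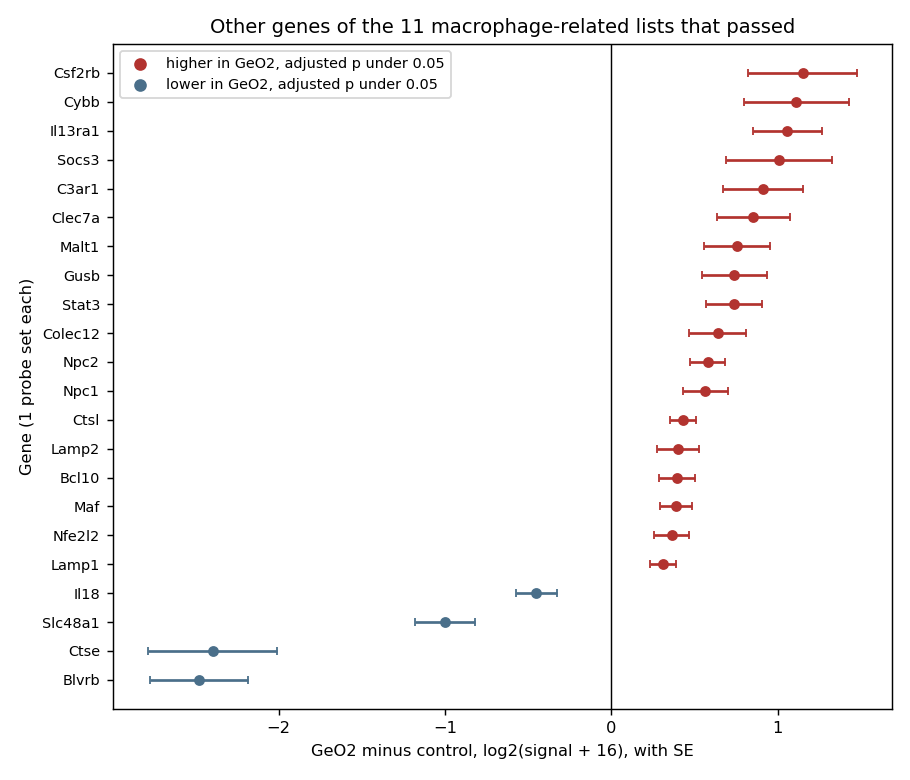
Difference of GeO2 minus control in log2(signal + 16), with its SE, for the genes of the 11 macrophage-related lists that passed at an adjusted p under 0.05 in limma, the 6 members left out. Red points rose and blue points fell. The 18 rises lie between 0.31 and 1.15, and Blvrb and Ctse have the lowest values.

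Markers of other cells were set beside the 6 genes. These markers, like the cochlear and erythroid ones, were counted only where the authors' deposited table names them. Of the 5116 tested genes of that table, 29.6% rose and 29.7% fell. The counts are therefore not independent evidence of a direction. Neutrophil markers had 2 of 24 genes measured, and both rose. Lcn2, a siderophore-binding protein of neutrophil granules and of stressed epithelia, had 4727, 5845, 23802, 2713 and 21782.5 units in GeO2 against 845, 1082, 1368, 452 and 230.3 units in control (log2 difference 3.60, SE 0.61, adjusted p = 0.00275 in limma). Cd177, a neutrophil surface protein, rose by 1.95 (SE 0.58, adjusted p = 0.0372 in limma), and did not pass in 9 of the 10 fits that dropped 1 array (adjusted p up to 0.0897) and with no filter. The summed signal of both ran from 2932 to 25941 units in GeO2 and from 459.5 to 1717 units in control.

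Within groups, the mean log2 value of each of 4 marker lists was correlated with each of the 6 genes, giving 24 relations adjusted together. Clec4n, Mpeg1, Ctss and Ccl6 followed the 3 general macrophage markers, with r between 0.88 and 0.97 and rho between 0.83 and 0.93 (exact permutation p between 0.000278 and 0.00146, adjusted p between 0.00583 and 0.007). The same 4 genes followed the 2 neutrophil markers, with r between 0.85 and 0.93 and rho between 0.81 and 0.88 (exact permutation p between 0.000486 and 0.00799, adjusted p between 0.00583 and 0.024). Without the 2 farthest arrays these 8 correlations were between 0.71 and 0.93. With Spearman's rho the same 8 relations passed (adjusted p up to 0.0485, exact permutation). How often other genes pass in this way is not given here, so the count is not read as particular to these 4 genes. The number of relations that passed by r fell to 3 without GeO2 replicate 4. Msr1 gave r of 0.56 with the macrophage and 0.63 with the neutrophil markers (exact permutation, adjusted p = 0.369 and 0.361), and Cd163 gave r of −0.33 and −0.30 (exact permutation, adjusted p = 0.468 for both). No gene passed with the erythroid or the cell cycle markers, with r between −0.49 and −0.26 (exact permutation, adjusted p between 0.361 and 0.547). Without the 2 farthest arrays these 12 correlations ran from −0.85, for Clec4n with the erythroid markers, to 0.15. The part of neutrophils in the differences between the groups was not tested.

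Of 15 osteoclast markers 6 were measured. Atp6v0d2, a proton pump subunit of osteoclasts and macrophages, rose by 1.18 (SE 0.30, adjusted p = 0.0201 in limma), Car2, carbonic anhydrase 2, changed by −0.46 (SE 0.09, adjusted p = 0.00643 in limma), and 4 did not pass, among them Acp5, tartrate-resistant acid phosphatase (−0.77, SE 0.29, adjusted p = 0.0846). The median log2 difference of the 6 was 0.03, and they averaged 10.77 ± 0.23 on the log2 scale in GeO2 and 10.66 ± 0.19 in control (SD, n = 5). Their summed signal ran from 33336 to 43682 units in GeO2 and from 49593 to 58687 units in control, and most of it was Car2, at 34414 ± 4522 units in GeO2 and 47160.0 ± 3082 units in control (SD, n = 5). Of 8 mast cell markers 1 was measured, Kit, at −0.46 (SE 0.13, adjusted p = 0.0282 in limma), and did not pass in 6 of the 10 fits that dropped 1 array (adjusted p up to 0.0671) and with arrays shifted to 1 median. Cell cycle genes fell in 23 of 23 measured, and they averaged 9.83 ± 0.58 on the log2 scale in GeO2 and 11.47 ± 0.46 in control (SD, n = 5). Because names come only from the authors' deposited table, the dendritic, B cell and T cell lists had no named gene in the fit. Below its limit, the T cell gene Cd3g ran from 123.7 to 600.2 units in GeO2 and from 8.1 to 145 units in control, so the groups overlapped. In the fit without the filter its log2 difference was 1.79 (SE 0.53, adjusted p = 0.0577 in limma) and did not pass.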

How the data were processed

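Cochlear total RNA was turned into biotinylated cRNA for Affymetrix arrays, per the labels' protocols. Intensities were deposited on a linear scale for 45037 probe sets on 10 arrays, made with GCOS version 1.3 per the submitters' processing notes, and their near-equal trimmed means show that they had been scaled. The authors' deposited table lists 7806 probe sets with their p-value and, as a score, a fold whose sign gives the direction, averaged over pairwise comparisons according to its closing note. Genes were named only from that table (7095 probe sets with 1 symbol), with old symbols updated through RefSeq (2354 by a synonym, 416 unmatched and kept).

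Signals were then converted to log2(signal + 16) and the lowest 40% of probe sets by mean were left out, leaving 27022. GeO2 and control were compared in limma 3.58.1 (R 4.3.3, lmFit and eBayes with trend), two-sided, with Benjamini-Hochberg adjustment over all of them and a threshold of 0.05. The SE of list genes is limma's, and that of the 6 genes is the plain one from the pooled SD. Of the 8 member probe sets, 5 passed the filter and Cd163 has none among them. Within-group correlations used all 14400 permutations of arrays within groups. Code was tested on simulated data. In the list counts, 1 tested gene is included that is not reported here by name. The members, the gene lists and the tests were chosen with earlier results of these data known. Genes named are the members, up to 4 per list by largest change among those past the threshold or else by smallest p, and the 8 genes most like the members; all others of a list were chosen after their values were seen, as were the alternatives described as such.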

Additional observations from a re-analysis of the deposited data

How the results depend on the processing

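The alternatives were arrays quantile-normalized or moved to a common median, an offset of 1 or 64, a filter of 60% or none, array weights, the replicate number as a block, a pooled-variance test on linear signals, and leaving out each array. The 8 member differences stayed positive under every alternative run for them, and leaving out single arrays gave 1.604 to 2.34 and 1.75 to 2.89 for the Clec4n probe sets, 1.19 to 1.77 for Msr1, 1.20 to 1.73 for Mpeg1, 1.07 to 1.49 for Ctss, 1.29 to 1.91 and 0.96 to 1.25 for Ccl6, and 0.77 to 1.23 for Cd163. With a single array left out, 1435 to 2482 probe sets were higher and 1343 to 2372 lower, against 2297 and 2111 with all arrays. For the 11 macrophage lists those counts were 9 to 20 higher and 3 to 4 lower. Array weights gave 3187 probe sets higher and 3010 lower, and 27 and 5 genes of those lists, against 18 and 4. A median shift gave 2348 and 1558 probe sets, the pooled-variance test 1734 and 1510, and no filter 1917 and 1728. Correlated pairs of members numbered 1 to 5, and relations with marker lists 3 to 8. With quantile normalization or a median shift, 4 pairs passed in place of 5. The replicate numbers are shared between groups in the labels, but the deviations of same-numbered arrays were at most weakly related (r from −0.05 to 0.17). Only GeO2 replicate 5 had its highest r with the control array of its own number. With the replicate block, 2288 probe sets were higher and 2143 lower, and the list counts were 20 and 4. With 5 arrays per group and dim probe sets for Cd163 and the second probe sets of Clec4n and Ccl6, small differences cannot be resolved.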

Other observations

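When Cd163 was left out of the mean, an alternative chosen after seeing the data, 5 of the 8 genes most like the members were shared with the first ranking, and 29 in place of 21 probe sets had an r of at least 0.9. The immunoglobulin heavy chain probe set Igh-VJ558 then ranked second (r of 0.92). It had 23381, 7578.5, 35369, 2040.2 and 60701 units in GeO2 against 2355.5, 1964, 1522, 887 and 881 units in control, so GeO2 replicate 4 lay among the controls here too. Its log2 difference was 3.41 (SE 0.72, adjusted p = 0.00787 in limma), and its probes can match many related heavy chain genes.

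Genes most like Cd163 over the 10 arrays, also ranked after seeing the data, were led by Gpm6b, a membrane glycoprotein of neurons and glia. It had an r of 0.94 with Cd163 and averaged 30536 ± 1055 units in GeO2 and 22761 ± 2026 units in control (SD, n = 5). Cers4, a ceramide synthase listed as Lass4, Macf1, a linker of microtubules and actin, Ube2k, a ubiquitin-conjugating enzyme listed as Hip2, and Trmt61a followed with r between 0.88 and 0.89.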
